A study of Mus musculus with 6 samples.

Results

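The Serpin family was followed on 6 one-colour whole-genome expression arrays of mouse thymic epithelium. Members were chosen by name alone: every non-control probe whose gene name is Serpin, a clade letter from a to i and a number. The rule found 75 of 41174 probes, for 56 of 28032 genes, after old names were updated through RefSeq. Clade A had 20 genes, clade B 25, clade E 3, clades F and I 2 each, and clades C, D, G and H 1 each. Of the clade A genes 19 lie in a cluster on chromosome 12, and Serpina7 lies on chromosome X. Of the clade B genes 12 lie in a cluster on chromosome 1 and 13 in another on chromosome 13. Probes of 2 further genes, now named Serpina3j and Serpinb6d, carry older names on the array and fall outside the rule.

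The study sorted CD45- EpCAM+ thymic epithelial cells, the stromal cells that educate developing T cells, from C57BL/6 mice aged 4 weeks. All groups carried the same reporter, the bacterial artificial chromosome transgene Tg(Meis1-EGFP)FO156Gsat/Mmcd, so EGFP stands for activity of the transgene's Meis1 sequences and not for Meis1 protein. Meis1 is a homeobox transcription factor of the TALE class. The Meis1-high gate held EGFP-high cells of low forward scatter, the Meis1-low gate held EGFP-intermediate cells of high forward scatter, and the Meis1-negative gate held EGFP-negative cells of low forward scatter, each with 2 arrays from separate pools of 6 mice. EGFP level and scatter (a measure of cell size) change together between the Meis1-low gate and the other gates, and their parts cannot be told apart.

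Serpins are a family of proteins with one shared fold, in which most members offer a flexible reactive centre loop to a protease, are cut there and trap the enzyme in a dead complex. Clade A holds secreted plasma proteins such as the antitrypsins and antichymotrypsins, made above all in liver, while clade B holds inhibitors that stay inside cells and guard epithelia and leukocytes against granule and lysosomal proteases. A few members inhibit nothing: Serpinh1 is a collagen chaperone of the endoplasmic reticulum, and Serpina6 and Serpina7 carry hormones in blood. Medullary thymic epithelium is known for showing developing T cells the products of genes that otherwise belong to single peripheral tissues, liver included.

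Related gene copies can limit what a probe can say. The 60-base probes of Serpinb9d, Serpinb9e and Serpinb9f, neighbours in the chromosome 13 cluster, are shown because they share runs of letters. Runs of 8 or more bases found in another of the 3 are in capitals, each sequence given 5′ to 3′ with the mm9 positions of the array files, at chr13:33294817-33294876, chr13:33351856-33351915 and chr13:33426386-33426445, all on the plus strand.
Serpinb9d: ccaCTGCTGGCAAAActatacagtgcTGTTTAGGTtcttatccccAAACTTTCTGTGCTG
Serpinb9e: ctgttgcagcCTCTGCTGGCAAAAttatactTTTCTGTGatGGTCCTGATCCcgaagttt
Serpinb9f: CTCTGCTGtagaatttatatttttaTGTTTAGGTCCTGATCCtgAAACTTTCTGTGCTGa

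The printed letters bear on these 3 copies only. The Serpinb9d and Serpinb9f probes lay 16 edits apart, and the Serpinb9e probe 21 from that of Serpinb9d. Every other Serpin probe lay 22 or more edits from the nearest probe of another Serpin gene, so Serpinb9e was little closer than those. Whether a probe also binds transcripts of another copy was not checked, so values of the Serpina1, Serpina3, Serpinb1, Serpinb3, Serpinb6 and Serpinb9 copies are uncertain in that respect. The Serping1 probe is shown because this gene and those of its target proteases are compared in the results on complement. It joins 2 exons and covers chr2:84605968-84607474 on the minus strand.
Serping1: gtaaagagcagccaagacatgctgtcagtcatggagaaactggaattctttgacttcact

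A level here is the log2 of the array's processed signal minus that array's 75th percentile, and a difference is between the means of 2 gates on that scale. A gene was tested where a probe was well above background on both arrays of at least 1 gate, which left 18207 of 28006 genes (65%) and 42 of the 56 Serpin genes (75%). Spots well above background made up 53.1% to 69.6% of an array. Replicates correlated across tested genes at 0.904 (Meis1-high), 0.921 (Meis1-low) and 0.839 (Meis1-negative). Replicate 1 of every gate was on slide 1 and replicate 2 on slide 2, scanned apart. Meis1 itself read 0.24 and 0.12 for Meis1-high, -2.35 and -1.61 for Meis1-low and -3.20 and -0.99 for Meis1-negative. Meis1-negative replicate 1 stood apart: its mean level over 13 epithelial markers was 0.20 against 2.64 to 3.01 on the other 5 arrays, and over 18 thymocyte and T-cell markers 2.58 against -2.29 to -0.70. Of those 18 markers Rag2 and Zap70 were not well above background on both arrays of any gate.

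No Serpin gene passed limma's moderated test in any of the 3 comparisons, and neither did any other gene (Benjamini-Hochberg adjusted p under 0.05: 0 of 42 Serpin genes, and 0% of the 18207 genes tested). The smallest adjusted p of a Serpin gene in the limma fit was 0.25 for Meis1-high against Meis1-low, 0.372 for Meis1-high against Meis1-negative and 0.607 for Meis1-low against Meis1-negative, and 0.308 for any difference among the gates. With 2 arrays a gate the p-values measure the spread between replicate arrays, pooled over the gates, and precision is limited by that number. The moderated fit draws each gene's spread toward one common to all genes, with 4.36 prior degrees of freedom beside 3 residual ones. Pool, slide and scan cannot be told apart in the spread between replicate arrays. At an unadjusted p under 0.05, 1 Serpin gene was higher (4.7% of all genes tested) and 5 were lower (8.26%) in Meis1-high than in Meis1-low. In Meis1-high, 5 were higher (5.71%) and 0 lower (4.82%) than in Meis1-negative. In Meis1-low, 7 were higher (5.03%) and 0 lower (3.07%) than in Meis1-negative. The values below are therefore descriptions of these arrays, and the comparisons share arrays.

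More Serpin genes were detected in the Meis1-low gate than in the others. There, 41 of the 56 genes were well above background on both arrays (73.2%, against 59.7% of all genes), compared with 28 in Meis1-high (50% against 52.3%) and 25 in Meis1-negative (44.6% against 52.3%). The mean level was highest in Meis1-low for 35 of the 56 (62.5% against 29.6%), in Meis1-high for 19 (33.9% against 42.1%) and in Meis1-negative for 2 (3.57% against 28.3%). Both Meis1-low arrays stood above the other 4 for 15 genes (26.8% against 11%), both Meis1-high arrays did for 4 (7.14% against 11.7%), and both Meis1-negative arrays did for 1 (1.79% against 4.93%). Both arrays stood below the other 4 for 6 genes in Meis1-negative (10.7% against 4.31%) and for 1 gene in each of the other gates (1.79%, against 8.24% for Meis1-high and 8.94% for Meis1-low). Markers of erythroid cells moved with this: all 8 had a higher mean in Meis1-low than in each other gate, at mean levels of -3.22 and -2.98 for Meis1-high, -0.64 and -0.91 for Meis1-low and -3.25 and -1.82 for Meis1-negative. Their arrays did not overlap for 7 of 8 against Meis1-high (21.7% of all genes) and 6 of 8 against Meis1-negative (17.3% of all genes). Their part in the Serpin values was not tested. In bulk RNA, fewer cells that express a gene and less of its RNA per cell cannot be told apart.

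**Figure D1:**
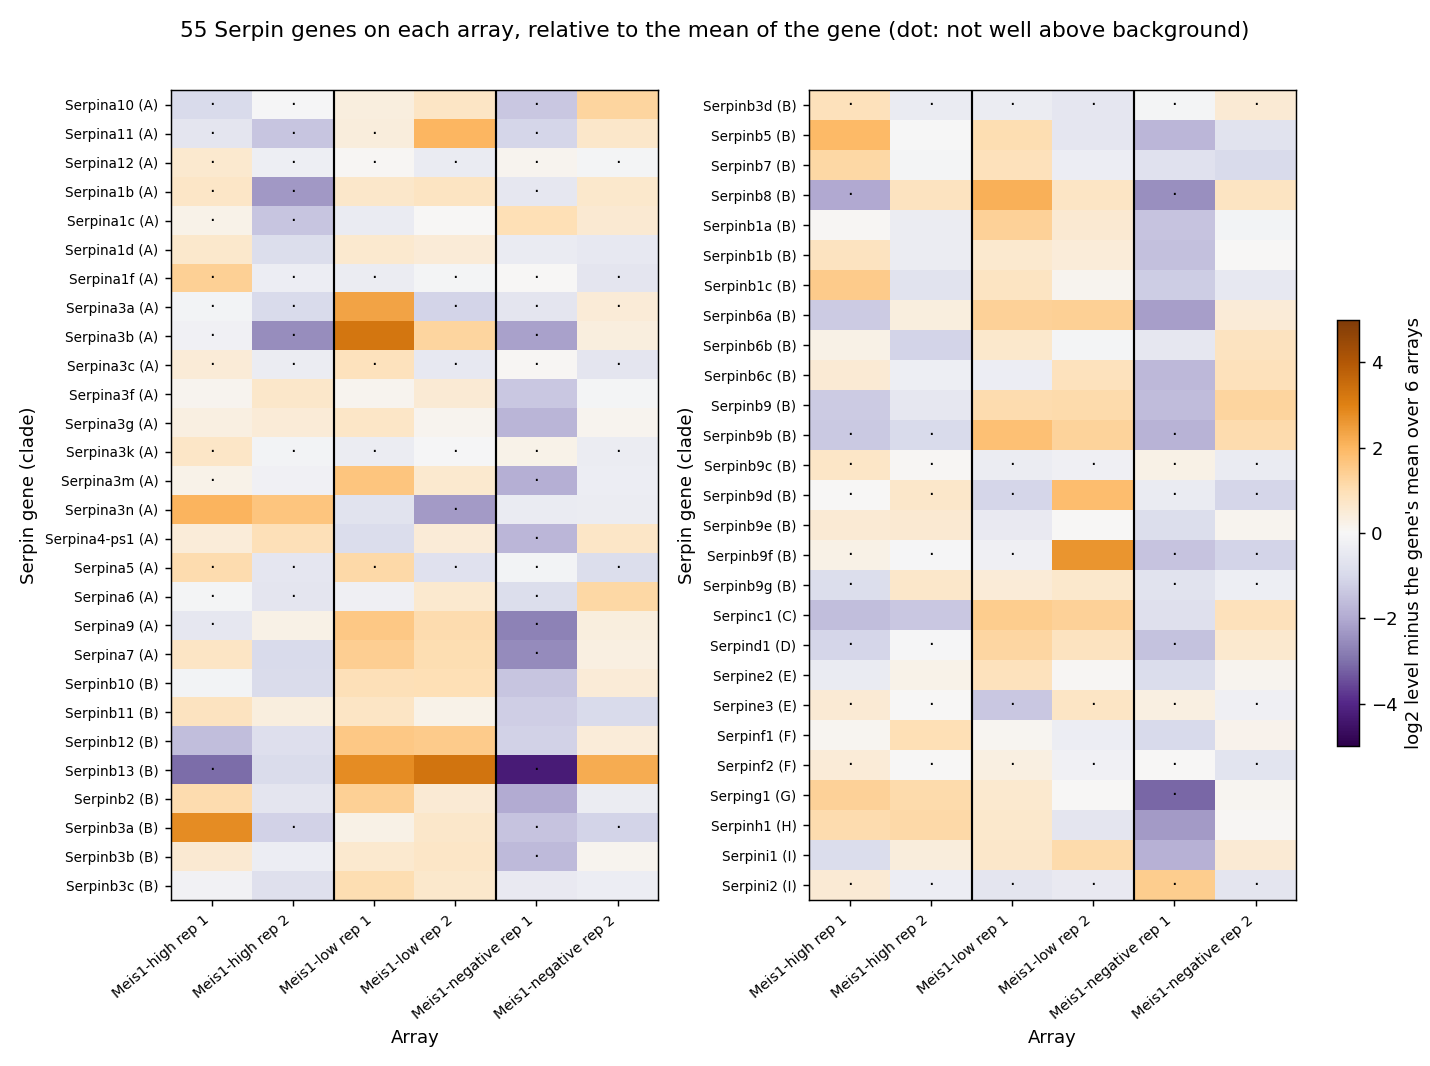
Each row is 1 of 55 Serpin genes with its clade, each column 1 array, and the colour is the log2 level minus that gene's mean over the 6 arrays; a dot marks a signal not well above background. Orange (above the gene's mean) is most common in the Meis1-low columns, and Meis1-negative replicate 1 was the lowest array for 32 of the 56 family members.

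Between Meis1-low and Meis1-negative, 48 of the 56 genes had the higher mean in Meis1-low, with a median difference of 1.19 against -0.12 over all genes on the array. The arrays of these gates did not overlap for 28 Serpin genes higher in Meis1-low (50% against 17.3% of all genes) and for 3 lower (5.36% against 15.7%). Meis1-negative replicate 1 was the lowest of all 6 arrays for 32 members (57.1% against 22.5%), so its low epithelial level moves with this result and its part was not tested. On slide 2, which does not hold that array, 38 members were higher in Meis1-low (67.9% against 57.8%), against 46 on slide 1 (82.1% against 42.3%), where 10 were lower (17.9% against 57.7%). With that array left out, both Meis1-low arrays were above the remaining Meis1-negative array for 35 members (62.5% against 35.4%) and below it for 11 (19.6% against 29.9%).

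Between Meis1-high and Meis1-low, 36 members were lower in Meis1-high and 20 higher, with a median difference of -0.54 against 0.19 over all genes. Over tested genes alone the medians were -0.69 for 42 members and -0.15 for all 18207, so the background turned sign with the undetected genes left out. The arrays did not overlap for 18 members lower in Meis1-high (32.1% against 21.7%) and for 6 higher (10.7% against 32.3%). Among tested genes alone, these were 17 of 42 members lower (40.5% against 31%) and 4 higher (9.52% against 22.7%). On slide 1, 27 members were higher in Meis1-high (48.2% against 58.3%) and 29 lower (51.8% against 41.7%), and on slide 2 23 were higher (41.1% against 54.5%) and 33 lower (58.9% against 45.5%). Set against Meis1-negative, Meis1-high had the higher mean for 39 members, the median difference being 0.46 against 0.17, 13 of them without overlap (23.2% against 18.1%), and 2 were lower without overlap (3.57% against 14.1%). That direction came mainly from slide 1, where 51 members were higher in Meis1-high (91.1% against 61.8%), while on slide 2 26 were (46.4% against 55.4%), and 3 were lower on both slides (5.36% against 22.2%). Without Meis1-negative replicate 1, both Meis1-high arrays were above the remaining Meis1-negative array for 20 members (35.7% against 41.2%) and below it for 18 (32.1% against 31.7%), shares near those of all genes.

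**Figure D2:**
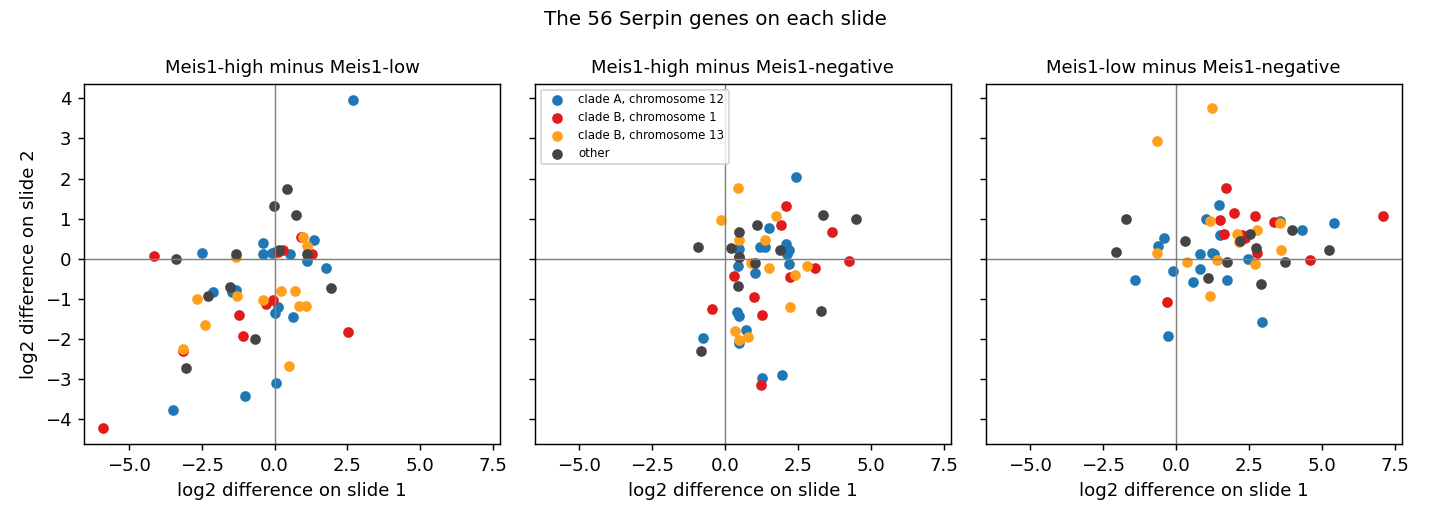
Each point is 1 of the 56 Serpin genes, with its log2 difference between gates on slide 1 (horizontal axis) and slide 2 (vertical axis), coloured by cluster, for the 3 comparisons. For Meis1-low minus Meis1-negative 32 genes lie above 0 on both slides, and for Meis1-high minus Meis1-negative most points lie right of 0 on slide 1 but are split about 0 on slide 2.

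Clade A, the plasma inhibitors, was mostly near background. Of its 20 genes, 12 were well above background on both Meis1-low arrays, 6 in Meis1-high and 5 in Meis1-negative, and 5 were well above background on none of the arrays. Against Meis1-negative, the median difference of Meis1-low over the 20 genes was 0.69 against -0.12 over all genes on the array. For 7 of the 20 the Meis1-low arrays lay above Meis1-negative without overlap, as 17.3% of all genes and 23.5% of tested genes did.

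Serpina3n, a secreted inhibitor of granzyme B and of neutrophil proteases in mouse, went the other way from most of its clade. Its level was -0.70 and -1.06 in the Meis1-high pair, -3.41 and -5.02 in the Meis1-low pair (the second not well above background) and -3.14 and -3.09 in the Meis1-negative pair. Both Meis1-high arrays lay above the other 4, with no overlap. The difference was 3.33 (SE 0.72, limma adjusted p = 0.25) against Meis1-low, with 2.71 on slide 1 and, against the undetected signal, 3.96 on slide 2. Against Meis1-negative it was 2.23 (limma adjusted p = 0.372), with 2.44 on slide 1 and 2.03 on slide 2. Both differences shrank under normexp background correction, to 0.49 against Meis1-low and 0.88 against Meis1-negative. That setting adds an offset of 50 to every signal, where the 75th percentiles of the processed signal were 73.3 to 165. Such an offset by itself makes log2 differences of dim genes smaller, here and in the normexp values below. Its part in them was not tested.

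Serpina3b, a neighbouring copy in the antichymotrypsin group, read -3.77 and -6.07 for Meis1-high, -0.29 and -2.29 for Meis1-low and -5.71 and -3.17 for Meis1-negative. It was not well above background on either Meis1-high array, and both Meis1-low arrays were the highest of the 6. The measured difference of Meis1-high from Meis1-low was -3.63 (SE 1.18, limma adjusted p = 0.292). Set against the lowest signal counted as well above background, the Meis1-low level was at least 5.04-fold higher. That bound holds for the processed signal only: under normexp background correction the log2 difference was -1.03, which is smaller than the bound. Serpina3g, a cathepsin inhibitor of lymphoid cells in mouse, gave 2.36 and 2.55 in the Meis1-high pair, 2.75 and 2.17 in the Meis1-low pair and 0.28 and 2.17 in the Meis1-negative pair. Its Meis1-high and Meis1-low arrays overlapped, and 1 Meis1-negative array stood low. Its difference between Meis1-high and Meis1-low was -0.01, with a sign that turned to 0.05 under normexp background correction and to 0.11 under quantile normalization.

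Serpina7 and Serpina9 shared a pattern. Serpina7, thyroxine-binding globulin, read -0.44 and -2.16 for Meis1-high, 0.24 and -0.15 for Meis1-low and -3.74 and -0.86 for Meis1-negative. Serpina9, which marks germinal centre B cells in human, read -3.54 and -2.78 in the Meis1-high pair, -1.43 and -1.93 in the Meis1-low pair and -5.74 and -2.65 in the Meis1-negative pair. For both genes the Meis1-low arrays were the highest, and Meis1-negative replicate 1 was the lowest and not well above background, nor was Serpina9 on Meis1-high replicate 1. Meis1-low exceeded Meis1-negative by 2.34 for Serpina7 (limma adjusted p = 0.607), with 0.71 on slide 2, and by 2.52 for Serpina9 (limma adjusted p = 0.607), with 0.72 on slide 2. With signals raised to the detection floor, the lowest signal well above background on each array, these were 2.32 and 1.49, and under normexp background correction 0.97 and 0.85. The 8 B-cell markers fixed for comparison were lower in Meis1-low than in Meis1-negative for 6 of 8, with mean levels of -2.85 and -2.02 in Meis1-low against -2.55 and -0.78 in Meis1-negative. In Meis1-high, at mean levels of -2.80 and -3.31, 6 of 8 were lower than in Meis1-low, as Serpina9 was by -1.47. Their part in the Serpina9 values was not tested.

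Serpina3m read -3.42 and -3.85 for Meis1-high, -1.97 and -3.02 for Meis1-low and -5.53 and -3.97 for Meis1-negative. The 3 gates did not overlap for this gene, with Meis1-low on top and Meis1-negative at the bottom. Replicate 1 of Meis1-high and of Meis1-negative was not well above background. Its measured difference between Meis1-low and Meis1-negative was 2.25 (limma adjusted p = 0.607), 1.33 with signals raised to the detection floor and 0.81 under normexp background correction. Serpina6, corticosteroid-binding globulin, had overlapping Meis1-low and Meis1-negative arrays and a difference of 0.01 between them. Serpina1c, an antitrypsin copy, was the clade member lowest in Meis1-high relative to Meis1-negative. It read -3.04 and -4.67 in the Meis1-high pair, neither well above background, -3.66 and -3.23 in the Meis1-low pair and -2.26 and -2.69 in the Meis1-negative pair. Its 2 Meis1-negative arrays were the highest of the 6, the only Serpin gene for which that held, and Meis1-negative was at least 2.09-fold above Meis1-high on the processed signal (limma adjusted p = 0.576), while the log2 difference of Meis1-high from Meis1-negative was -0.0013 under normexp background correction, smaller than that bound.

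Liver-restricted genes were likewise highest in Meis1-low on average. Of 14 such genes, none of them a serpin, 13 had a lower mean in Meis1-high than in Meis1-low and all 14 had a higher mean in Meis1-low than in Meis1-negative, with 0 passing the limma test. Their mean level was -3.21 and -2.70 for Meis1-high, -0.75 and -0.66 for Meis1-low and -3.59 and -1.53 for Meis1-negative. Ahsg was the gene of the 14 that was higher in Meis1-high, and Ttr was well above background on 0 of 6 arrays. Markers of mature medullary epithelium were lower in Meis1-high than in Meis1-low for 11 of 11, with mean levels of 0.93 and 1.12 against 3.29 and 3.14, and genes that depend on Aire for 12 of 12. The part of these lists in the Serpin values was not tested.

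**Figure D3:**
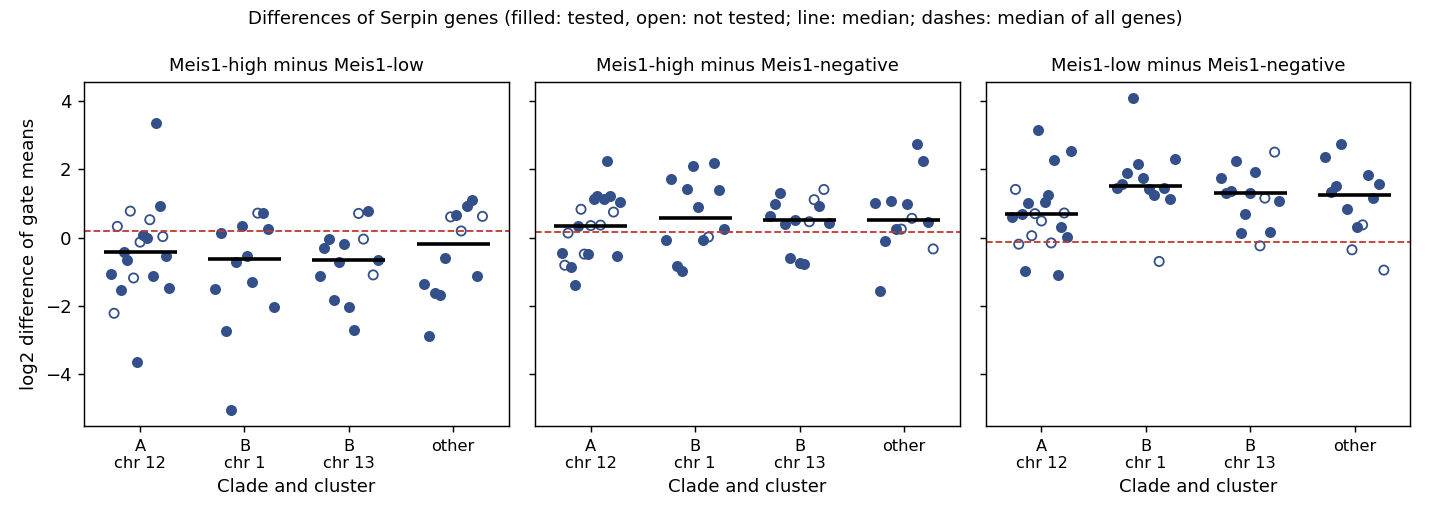
Each point is 1 Serpin gene, placed by clade and chromosome cluster, with the log2 difference of gate means on the vertical axis for the 3 comparisons; filled points were tested, open points were not, black lines are cluster medians and the red dashed line is the median of all genes on the array. In the right-hand panel the cluster medians are 0.68, 1.51, 1.29 and 1.23, above the -0.12 of all genes.

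Clade B held the most widely detected members. Of its 25 genes, 21 were well above background on both Meis1-low arrays, 16 in Meis1-high and 15 in Meis1-negative. Meis1-low had the higher mean than Meis1-negative for 23 of the 25, with a median difference of 1.42. The chromosome 1 cluster, which codes for keratinocyte and squamous epithelial serpins, did so for 11 of 12, and the arrays did not overlap for 10 of them. The chromosome 13 cluster did so for 12 of 13, without overlap for 7. Of all genes on the array 17.3% lay higher in Meis1-low without overlap, and of tested genes 23.5%.

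Serpinb13, known in human as headpin and as an inhibitor of lysosomal cysteine cathepsins in squamous epithelium, had the largest measured difference between Meis1-high and Meis1-low in the family. It read -4.54 and -2.40 in the Meis1-high pair, 1.33 and 1.82 in the Meis1-low pair and -5.75 and 0.76 in the Meis1-negative pair. The Meis1-low arrays lay above all others, the Meis1-high arrays lay low and the Meis1-negative arrays lay far apart. Replicate 1 of Meis1-high and of Meis1-negative was not well above background. Meis1-high minus Meis1-low was -5.05 (SE 1.88, limma adjusted p = 0.332), with -4.22 on slide 2, and -4.38 with signals raised to the detection floor. Meis1-low minus Meis1-negative was 4.08 (limma adjusted p = 0.607), with 1.07 on slide 2, and 3.05 at that floor.

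Serpinb12, an inhibitor of trypsin-like proteases in human, read -0.04 and 0.74 for Meis1-high, 3.11 and 3.04 for Meis1-low and 0.40 and 1.98 for Meis1-negative. Both Meis1-low arrays stood above the other 4 and both Meis1-high arrays below Meis1-low without overlap. The difference of Meis1-high from Meis1-low was -2.72 (SE 0.74, limma adjusted p = 0.253), with -3.15 and -2.30 on the slides, and its second probe gave -2.44. Under normexp background correction Serpinb12 and Serpinb13 passed the limma test for this comparison, at -2.16 (adjusted p = 0.0148) and -2.26 (adjusted p = 0.00907). That setting called 230 of 18207 genes. Its fit gave both genes the same SE of 0.55, against 0.74 for Serpinb12 and 1.88 for Serpinb13 in the main fit. Those adjusted p-values therefore rest on a common spread alone, where the main fit also uses that of each gene.

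Members near these genes on chromosome 1 did not all share that pattern. Serpinb5, maspin, an epithelial serpin that inhibits no known protease, read 1.72 and -0.22 in the Meis1-high pair, 0.82 and -0.77 in the Meis1-low pair and -1.95 and -0.90 in the Meis1-negative pair. Meis1-high and Meis1-low overlapped, while both stood above Meis1-negative. Meis1-high exceeded Meis1-negative by 2.17 (SE 0.91, limma adjusted p = 0.466), with 3.67 on slide 1 and 0.68 on slide 2. Serpinb11 read 2.35 and 1.86 for Meis1-high, 2.25 and 1.69 for Meis1-low and 0.25 and 0.55 for Meis1-negative, so the Meis1-high and Meis1-low arrays overlapped and both Meis1-negative arrays were the lowest. Its difference of Meis1-high from Meis1-negative was 1.70 (limma adjusted p = 0.412). Serpinb7, the skin serpin megsin, was also lowest on both Meis1-negative arrays, with 1.23 and -0.06 in the Meis1-high pair, 0.94 and -0.28 in the Meis1-low pair and -0.70 and -0.91 in the Meis1-negative pair.

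Serpinb2, plasminogen activator inhibitor type 2, read 2.81 and 1.13 for Meis1-high, 3.11 and 2.26 for Meis1-low and -0.26 and 1.35 for Meis1-negative. Its Meis1-low arrays did not overlap Meis1-negative, and its Meis1-high arrays overlapped both other gates. The difference of Meis1-low from Meis1-negative was 2.14 (limma adjusted p = 0.607), with 3.37 on slide 1 and 0.91 on slide 2, and a second probe gave 2.16. Of the squamous cell carcinoma antigen copies, Serpinb3c read 1.44 and 0.86 in the Meis1-high pair, 2.65 and 2.25 in the Meis1-low pair and 1.14 and 1.28 in the Meis1-negative pair, with Meis1-low above the other 4 arrays. On its second probe this did not hold, since Meis1-high replicate 1 (-1.57) lay above Meis1-low replicate 2 (-2.20). Serpinb3a was well above background on both arrays in Meis1-low alone, and read -1.44 and -5.37 in Meis1-high. Serpinb3d was well above background on 0 of 6 arrays. Of 12 corneocyte-like genes, 12 had a higher mean in Meis1-low than in Meis1-negative and 7 had a lower mean in Meis1-high than in Meis1-low. Their mean level was 1.25 and 0.54 for Meis1-high, 1.64 and 0.97 for Meis1-low and -2.28 and 0.40 for Meis1-negative.

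The chromosome 13 cluster holds the guards against granule proteases. Serpinb9, the inhibitor of granzyme B, read -0.57 and 0.17 in the Meis1-high pair, 1.81 and 1.84 in the Meis1-low pair and -0.91 and 1.97 in the Meis1-negative pair. Meis1-high and Meis1-low did not overlap, and Meis1-negative held both the lowest and the highest array. The difference of Meis1-high from Meis1-low was -2.02 (SE 0.97, limma adjusted p = 0.434), with -2.38 and -1.66 on the slides, and a second probe gave -2.40. Serpinb9b read -5.21 and -4.82 for Meis1-high, neither well above background, -2.08 and -2.57 for Meis1-low and -5.68 (not well above background) and -2.80 for Meis1-negative. Both Meis1-low arrays were the highest, at least 2.46-fold above Meis1-high on the processed signal (limma adjusted p = 0.319). Under normexp background correction the log2 difference of Meis1-high from Meis1-low was -0.53, smaller than that bound.

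Serpinb9e went against its neighbours, with -1.17 and -1.13 in the Meis1-high pair, -2.16 and -1.68 in the Meis1-low pair and -2.55 and -1.59 in the Meis1-negative pair. Both Meis1-high arrays lay above the other 4, by 0.77 over Meis1-low on average (limma adjusted p = 0.659) and 0.13 under normexp background correction, on a probe that shares letters with Serpinb9d and Serpinb9f as printed above. Neither of those copies was tested.

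Serpinb6a, which inhibits trypsin-like and granule proteases and is needed in the inner ear, read 0.28 and 1.96 for Meis1-high, 2.94 and 2.97 for Meis1-low and -0.62 and 2.07 for Meis1-negative. With this probe Meis1-low stood above the other 4 arrays, which held for neither of the other probes. Meis1-low exceeded Meis1-negative by 2.23 (limma adjusted p = 0.607), with 3.57 on slide 1 and 0.90 on slide 2. The other probes gave 0.92 and 0.58. Meis1-high minus Meis1-low was -1.84, -0.86 and 0.08 for its 3 probes, so they did not share a direction. Serpinb1a, the inhibitor of neutrophil elastase, read 5.06 and 4.65 in the Meis1-high pair, 6.35 and 5.59 in the Meis1-low pair and 3.57 and 4.88 in the Meis1-negative pair, with Meis1-low above the other 4. Serpinb6b read 5.71 and 4.36 for Meis1-high, 6.11 and 5.38 for Meis1-low and 4.94 and 6.31 for Meis1-negative. All 3 gates overlapped for Serpinb6b, and its differences from Meis1-negative, -0.59 for Meis1-high and 0.12 for Meis1-low, both turned sign when 1 array was left out.

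Granule serine proteases, some of which clade B members inhibit, were listed for comparison. Of 11 genes, 6 had a lower and 5 a higher mean in Meis1-high than in Meis1-low. The 6 lower ones were those tested, 0 passed the limma test in any comparison, and none of the 5 others was well above background on both arrays of any gate. Gzma read -2.85 and -1.76 in the Meis1-high pair, -0.15 and -0.89 in the Meis1-low pair and 4.48 and 0.18 in the Meis1-negative pair. It was highest on the array with the most thymocyte transcript, and its difference of Meis1-high from Meis1-negative was -4.63 (limma adjusted p = 0.336). Gzmb read -5.35 and -2.06 for Meis1-high, -1.51 and -0.35 for Meis1-low and -1.92 and -0.28 for Meis1-negative, with Meis1-high below the other 4 arrays and well above background on 1 of its 2. The mast cell proteases Mcpt4 and Cma1 were lower in Meis1-high than in Meis1-low, with differences of -4.09 and -2.88 (limma adjusted p = 0.253 and 0.329), Cma1 being well above background on 1 Meis1-high array. Of 14 dendritic cell and macrophage markers, 12 were likewise lower in Meis1-high than in Meis1-low, with mean levels of -2.52 and -2.50 against -1.01 and -0.67. Their part in the clade B values was not tested. Siglech among them was well above background on 0 of 6 arrays.

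Lysosomal cathepsins, which some clade B members inhibit, had a lower mean in Meis1-high than in Meis1-low for 10 of 12 genes. Ctsl, the cathepsin of cortical epithelium, was the opposite, with 6.46 and 6.63 in the Meis1-high pair, 5.21 and 4.16 in the Meis1-low pair and 3.90 and 5.01 in the Meis1-negative pair. Both Meis1-high arrays were the highest, by 1.86 over Meis1-low (limma adjusted p = 0.336), while Ctsh, Ctsz and Ctss gave -2.05, -2.14 and -1.88.

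**Figure D4:**
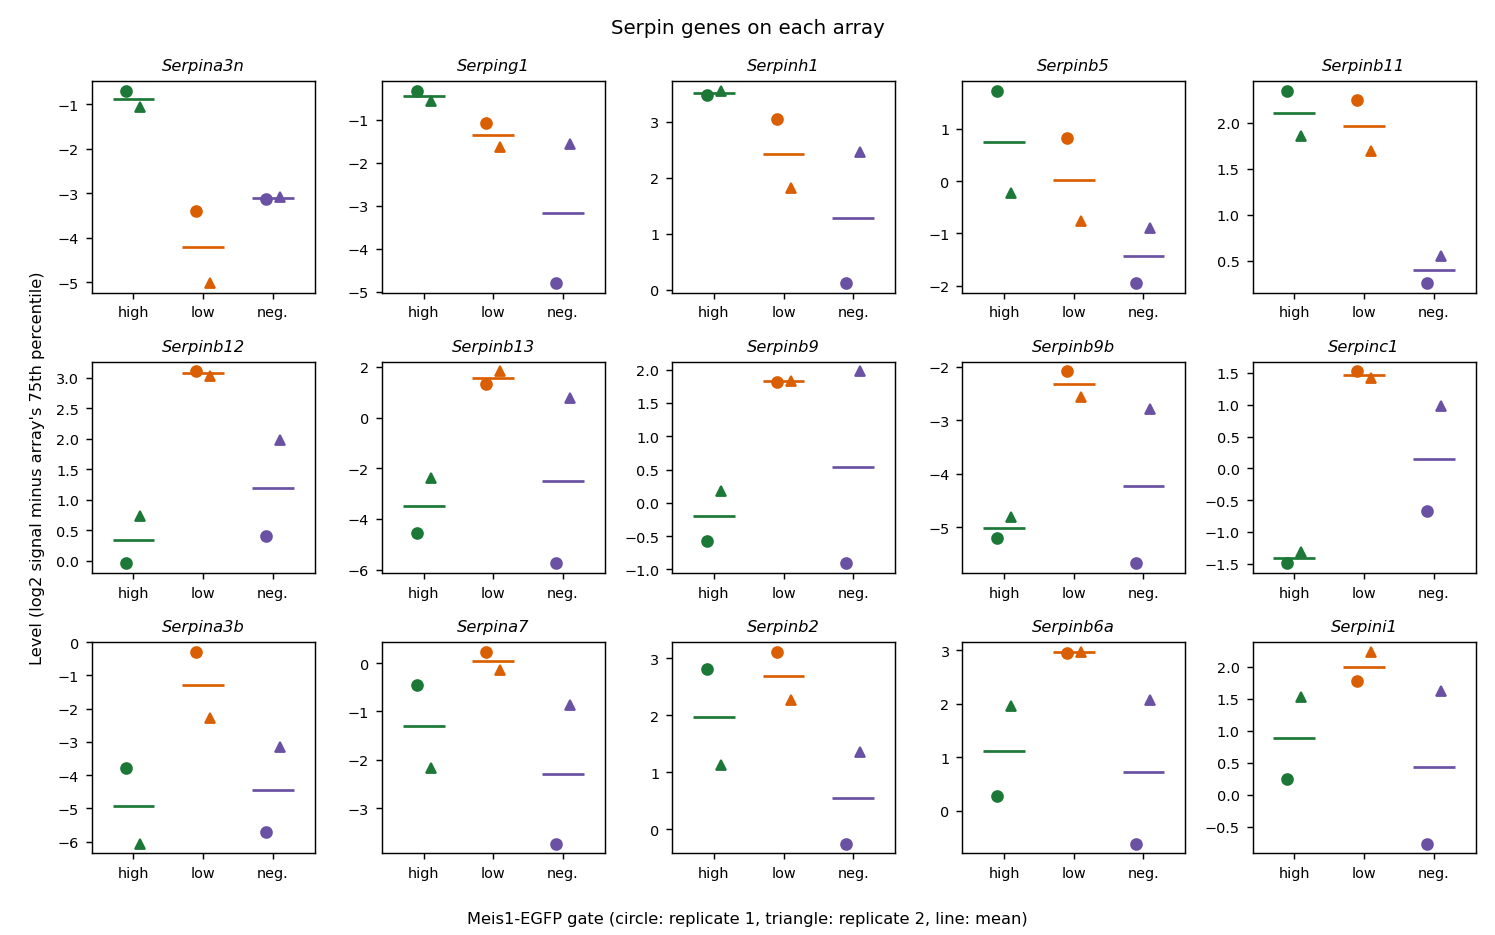
Levels of 15 Serpin genes (log2 signal minus the array's 75th percentile, a separate scale for each gene) in the Meis1-high, Meis1-low and Meis1-negative gates; circles are replicate 1 on slide 1, triangles replicate 2 on slide 2, and lines gate means. Serpina3n and Serping1 are highest on both Meis1-high arrays and Serpinb12, Serpinb13 and Serpinc1 on both Meis1-low arrays.

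The remaining clades have 1 to 3 genes each and regulate clotting, fibrinolysis, complement and collagen. Serpinc1, antithrombin, the plasma inhibitor of thrombin, read -1.50 and -1.31 for Meis1-high, 1.53 and 1.42 for Meis1-low and -0.68 and 0.98 for Meis1-negative. Meis1-low was the highest and Meis1-high the lowest, with no overlap between any pair of gates. The difference of Meis1-high from Meis1-low was -2.88 (SE 0.72, limma adjusted p = 0.253), with -3.02 and -2.74 on the slides, and the second probe gave -1.95. Against Meis1-negative the probes gave -1.56 and 0.16, so they differ in sign there.

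Serpind1, heparin cofactor II, another thrombin inhibitor, read -5.10 and -4.11 in the Meis1-high pair, neither well above background, -2.82 and -3.18 in the Meis1-low pair and -5.55 (not well above background) and -3.43 in the Meis1-negative pair. Meis1-low lay above the other 4 arrays and was at least 1.54-fold above Meis1-high on the processed signal (limma adjusted p = 0.477), while the log2 difference of Meis1-high from Meis1-low was -0.35 under normexp background correction, smaller than that bound. Coagulation genes did not share one direction: of 13, 7 had a higher and 6 a lower mean in Meis1-high than in Meis1-low. Of the 9 tested, 4 were higher and 5 lower, with a median difference of -1.84, and 0 passed the limma test. F2, prothrombin, read -2.16 and -2.39 for Meis1-high, 0.63 and -0.33 for Meis1-low and -2.31 and -0.58 for Meis1-negative. Like Serpinc1 it was highest on both Meis1-low arrays, and Meis1-high minus Meis1-low was -2.43 (limma adjusted p = 0.291). Thbd, the thrombin receptor thrombomodulin, was the opposite at 3.1 higher in Meis1-high (limma adjusted p = 0.292), and Procr, the protein C receptor, was lower there, with a difference of -3.18 (limma adjusted p = 0.278).

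Serpine2, protease nexin 1, an inhibitor of thrombin and urokinase, read -2.12 and -1.51 for Meis1-high, -0.82 and -1.63 for Meis1-low and -2.58 and -1.56 for Meis1-negative, and the gates overlapped in the comparison of Meis1-high with each other gate. Serpine3 was well above background on 0 of 6 arrays. Of 10 genes of plasminogen activation, 0 passed the limma test. In Meis1-high 7 had a higher and 3 a lower mean than in Meis1-negative, with a median difference of 0.36, and against Meis1-low 5 were higher and 5 lower. Plaur, the urokinase receptor, was 1 of the 3 lower ones and was not well above background on either Meis1-high array.

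Serping1, the C1 inhibitor, which shuts off the first proteases of complement, read -0.33 and -0.56 in the Meis1-high pair, -1.08 and -1.65 in the Meis1-low pair and -4.80 (not well above background) and -1.56 in the Meis1-negative pair. Both Meis1-high arrays were the highest of the 6, and Meis1-low and Meis1-negative overlapped. Meis1-high exceeded Meis1-negative by 2.73 (SE 1.04, limma adjusted p = 0.434), with 1.0 on slide 2, and Meis1-low by 0.91 (limma adjusted p = 0.752). The first difference was 2.18 with signals raised to the detection floor and 0.90 under normexp background correction, and the second was 0.29 under normexp. Without Meis1-negative replicate 2 the difference from Meis1-negative was 4.36 and passed (limma adjusted p = 0.0346), in a fit that rests on that undetected signal, on the array that stood apart, and called 953 genes.

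Of 9 listed genes of complement proteases and their close partners, 5 had a higher and 4 a lower mean in Meis1-high than in Meis1-low, and 0 of 8 tested passed. The higher ones included C1ra, C1s1 and C1rb, copies of C1r and C1s, the proteases that Serping1 inhibits. C1ra read 3.55 and 3.73 for Meis1-high, 1.97 and 0.67 for Meis1-low and 0.76 and 2.04 for Meis1-negative. C1s1 read 3.19 and 3.05 in the Meis1-high pair, 0.63 and -0.20 in the Meis1-low pair and -0.56 and 1.34 in the Meis1-negative pair. For both, and for C1rb, the Meis1-high arrays lay above the other 4, and C1rb was well above background on 1 of 2 arrays in each other gate. Meis1-high exceeded Meis1-low by 2.32 for C1ra, 2.90 for C1s1 and 3.56 for C1rb (limma adjusted p = 0.292, 0.253 and 0.290). Cfb, factor B of the alternative pathway, differed by -3.78 (limma adjusted p = 0.257).

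Serpinh1, the collagen chaperone, read 3.48 and 3.55 for Meis1-high, 3.05 and 1.81 for Meis1-low and 0.12 and 2.45 for Meis1-negative. Both Meis1-high arrays stood above the other 4, and Meis1-low and Meis1-negative overlapped. The difference from Meis1-negative was 2.23 (SE 0.90, limma adjusted p = 0.452), with 3.36 on slide 1 and 1.09 on slide 2, and from Meis1-low 1.09 (limma adjusted p = 0.658). Of 19 collagens and collagen-folding genes, 11 had a higher and 8 a lower mean in Meis1-high than in Meis1-low, and 0 of 18 tested passed the limma test. Col6a2, Col6a1 and the prolyl isomerase Fkbp10 were higher by 4.06, 3.36 and 2.39 (limma adjusted p = 0.25, 0.253 and 0.269). Col1a1 was lower, with a difference of -2.06 (limma adjusted p = 0.292). Of 12 fibroblast and pericyte markers, 8 were higher in Meis1-high than in Meis1-low, and their mean level was 1.22 and -0.02 in the Meis1-high pair, 0.46 and -0.19 in the Meis1-low pair and 0.05 and 0.14 in the Meis1-negative pair. Pdgfra among them was well above background on 1 array, Meis1-high replicate 1. Markers of immature medullary epithelium were higher in Meis1-high than in each other gate for 10 of 10, without overlap for 10, at mean levels of 3.99 and 3.82 for Meis1-high, 2.09 and 1.52 for Meis1-low and 0.72 and 2.31 for Meis1-negative. Tuft-like markers were higher there for 10 of 10, without overlap for 9, at mean levels of 0.22 and 0.63 against -2.21 and -1.82 for Meis1-low and -3.09 and -1.19 for Meis1-negative. As background for both lists, 32.3% of all genes lay higher in Meis1-high than in Meis1-low without overlap, and 18.1% higher than in Meis1-negative. Of 11 cortical epithelium markers, 7 were higher and 4 lower in Meis1-high than in Meis1-low, and 11 were higher than in Meis1-negative. Their mean levels were 1.53 and 2.37 for Meis1-high, 1.25 and 0.61 for Meis1-low and -1.06 and 0.98 for Meis1-negative. The part of these marker lists in the Serpina3n, Serpinh1 and Serping1 values was not tested.

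**Figure D5:**
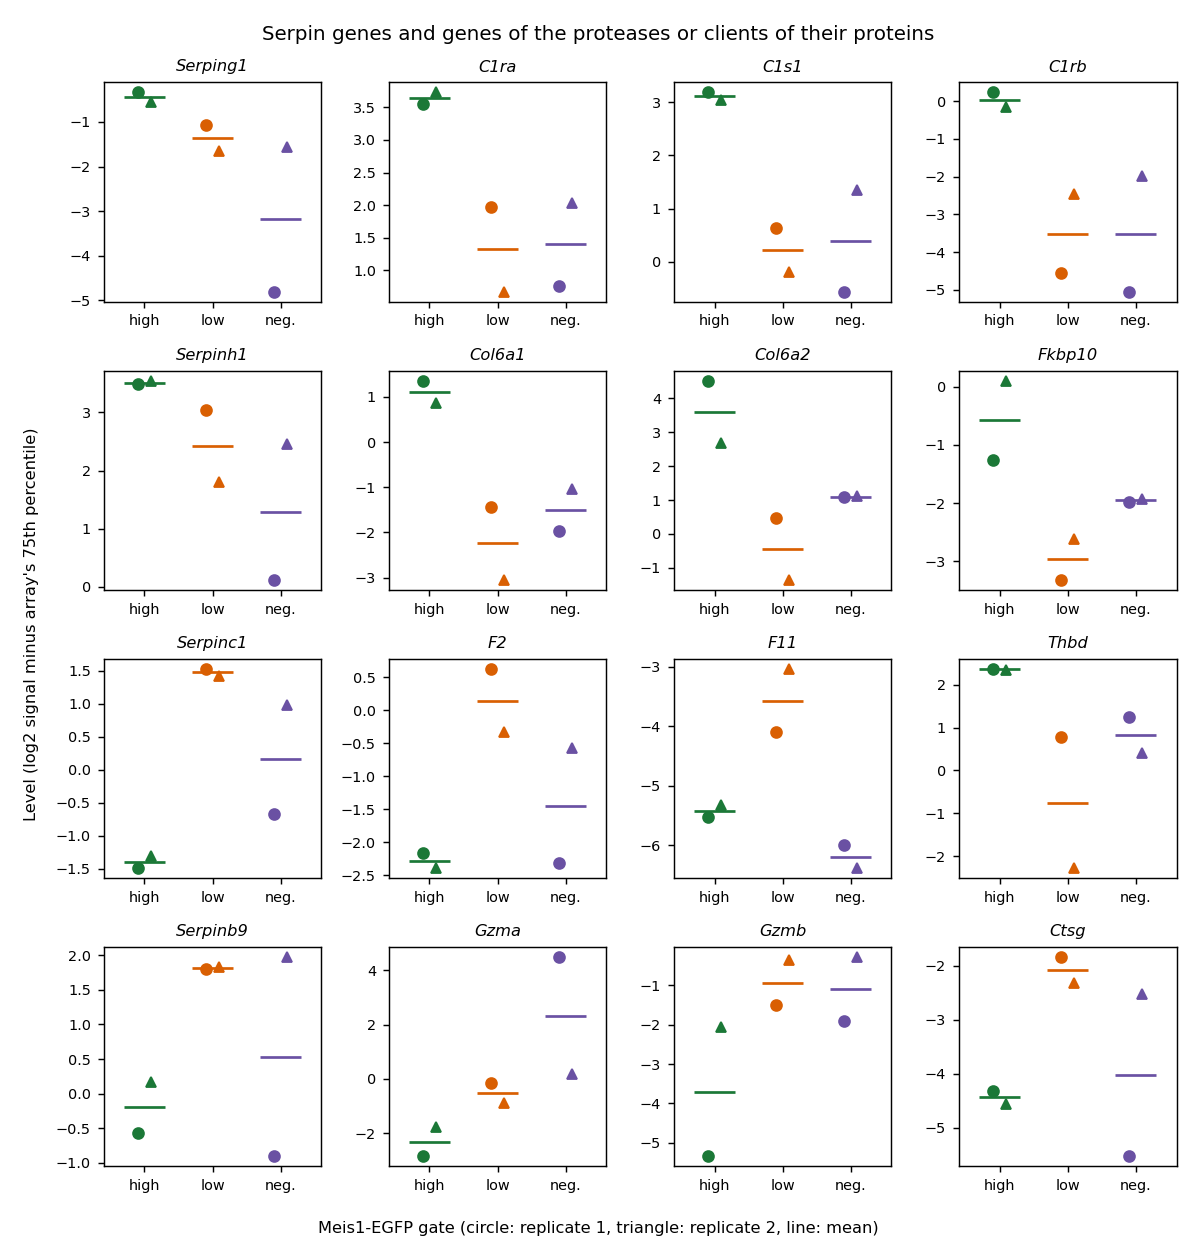
Levels (log2 signal minus the array's 75th percentile, a separate scale for each gene) in the 3 gates for Serping1, Serpinh1, Serpinc1 and Serpinb9, each followed in its row by genes of the protease, client or pathway list set beside it. Not every gene shown is a target of the Serpin in its row. Symbols and lines are as in the plot of 15 Serpin genes. C1ra, C1s1, C1rb, Col6a1, Col6a2 and Fkbp10 are highest on both Meis1-high arrays, as Serping1 and Serpinh1 are, and F2 and F11 on both Meis1-low arrays, as Serpinc1 is. The genes shown are a selection from lists without one direction. Against Meis1-low, Meis1-high had a higher mean for 5 and a lower for 4 complement genes. For collagen genes these counts were 11 and 8, and for coagulation genes 7 and 6. Among tested genes of the 3 lists they were 4 and 4, 11 and 7, and 4 and 5. Cfb and Col1a1, lower in Meis1-high, are not shown.

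Serpinf1, pigment epithelium-derived factor, an anti-angiogenic serpin that inhibits no protease, read 2.06 and 2.96 for Meis1-high, 2.08 and 1.64 for Meis1-low and 0.96 and 2.13 for Meis1-negative. All 3 gates overlapped in pairs, and the difference of Meis1-high from Meis1-low was 0.65 with 1 probe and 1.48 with the other (limma adjusted p = 0.738 for the first). Serpinf2, the plasmin inhibitor, was well above background on 0 of 6 arrays. Serpini1, neuroserpin, an inhibitor of tissue plasminogen activator, read 0.24 and 1.52 in the Meis1-high pair, 1.77 and 2.23 in the Meis1-low pair and -0.77 and 1.62 in the Meis1-negative pair. Both Meis1-low arrays were the highest, by 1.57 over Meis1-negative (limma adjusted p = 0.625), with 2.54 on slide 1 and 0.61 on slide 2. Serpini2, a pancreatic member, was well above background on 0 of 6 arrays.

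Where a gene had several tested probes, their directions mostly matched. Of 12 such genes, 10 had all probes on one side for Meis1-high against Meis1-low, the exceptions being Serpina3f and Serpinb6a. Between Meis1-high and Meis1-negative 9 did, with Serpinb12, Serpinb3c and Serpinc1 as exceptions, and between Meis1-low and Meis1-negative 11 did, with Serpinf1 as the exception. Of the members not tested, 10 were well above background on 0 of the 6 arrays, among them Serpina12, Serpina5 and Serpina3k, all of clade A.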

How the data were processed

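Labelled cDNA from 3 sorted gates, each with 2 pools, was read on 6 one-colour Agilent arrays, and gates were taken from the sample labels. The spot intensity values are the scanner output as deposited, extracted with Feature Extraction 9.5.3.1 per the submitters' processing notes. Per the file headers, each intensity used is the processed signal, after background subtraction by that software, and replicate number, slide and scan coincide. The log2 table that the authors deposited for the same arrays served as an alternative.

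Control spots and outlier flags were left out. The log2 signal was centred on each array's 75th percentile. A probe was tested where it was well above background on both arrays of at least 1 gate (26569 probes, with 14605 left out), and the tested probe with the highest mean stood for its gene. The 3 comparisons and the test of any difference used limma 3.58.1 in R 4.3.3 (lmFit and eBayes), with Benjamini-Hochberg adjustment over 18207 genes and a threshold of 0.05, and were tested on simulated data. No probe signal is a molecule count, so the number of arrays sets the precision. Tables and figures used Python 3.11.15 with pandas 2.3.3, numpy 2.4.6 and matplotlib 3.10.9.

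Every member could be named. Values on all arrays are given for tested members with a gate difference of 2 or more and no overlap of the arrays, for the extremes of each clade and for a fixed set, and for further members chosen after their values were seen, such as Serpinb3c and Serpinb9e. Up to 4 genes of each partner list were named by smallest p. A fold written as at least was taken against the lowest signal well above background. Members, gene lists and tests were chosen with earlier results of these data known. The 19 alternatives covered background correction (normexp with an offset of 50), scaling, filters, the choice of probe, the deposited log2 table, a block and each array left out. Values of 1 member and 1 probe sequence are not reported here.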

Additional observations from a re-analysis of the deposited data

How the results depend on the processing

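Of 46 gene differences recomputed in up to 19 settings, 36 kept their sign in every setting, and 21 of 868 alternative values had the opposite sign. These counts partly follow from how genes and settings were chosen. Some differences were picked for arrays without overlap, where leaving out 1 array cannot turn the sign. The block, trend with robust fitting and leaving out an array of the third gate do not alter a difference. Normexp background correction called 230, 303 and 120 genes (90, 124 and 18 of them higher in the first gate) for Meis1-high against Meis1-low, Meis1-high against Meis1-negative and Meis1-low against Meis1-negative, and 456 for any difference. It called 2 Serpin genes, Serpinb12 and Serpinb13, for the first comparison and 2 for any difference. The normexp fit gave both genes the same SE of 0.55 in the first comparison, so their own spread did not enter those calls. Median centring called 78 genes (6 higher), 14 (0 higher) and 68 for both comparisons with Meis1-negative and the joint test, and moved the median of all tested genes there from -0.10 to -0.22 for Meis1-high and from 0.05 to -0.06 for Meis1-low. For Meis1-high against Meis1-negative the signal floor called 24 genes (1 higher) and trend with robust fitting 4 (0 higher). The causes were not tested.

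With 1 array left out in turn, genes called ranged from 0 to 0, 0 to 953 and 0 to 1269 in the 3 comparisons and from 0 to 978 for any difference, and Serpin genes called from 0 to 0, 0 to 1, 0 to 4 and 0 to 3. The high values came without Meis1-negative replicate 2, which leaves that gate with the array that stood apart, assumed to vary like the others. There Serping1 passed in both comparisons with Meis1-negative (adjusted p = 0.0346 and 0.0404), and Serpina9, Serpinb13 and Serpinb9b passed against Meis1-low (0.0368, 0.0351 and 0.0419).

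Counts of Serpin genes without overlap moved from 6 to 2 with normexp for those higher in Meis1-high than in Meis1-low. For those lower in Meis1-high than in Meis1-negative they moved from 2 to 1 with normexp and to 18 without Meis1-negative replicate 1, and for those higher from 13 to 20 without it. For those lower in Meis1-low than in Meis1-negative they moved from 3 to 1 with quantile normalization, to 0 with normexp and to 11 without that array. These settings were added after the data were seen. Without Meis1-negative replicate 1 only 1 array of that gate had to be cleared, and the shares of all genes rose too. They went from 14.1% to 31.7% (lower in Meis1-high), 18.1% to 41.2% (higher in Meis1-high) and 15.7% to 29.9% (lower in Meis1-low).

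Signs turned in 10 gene differences, given here with their range when each array was left out. For Meis1-high minus Meis1-negative, Serpinb13 ranged from -4.23 to 2.28 (0.10 without Meis1-high replicate 1), Serpind1 from -1.17 to 0.95 (0.38 without Meis1-high replicate 1, and 0.28 with normexp), Serpini1 from -0.74 to 1.65 (-0.18 without Meis1-high replicate 2), Serpine2 from -0.26 to 0.77 (-0.05 there) and Serpinb6b from -1.28 to 0.10 (0.08 there). The negative ends of Serpini1 and Serpine2 came without Meis1-negative replicate 1. For Meis1-low minus Meis1-negative, Serpinf1 ranged from -0.27 to 0.90, Serpinh1 from -0.025 to 2.31 and Serpinb6b from -0.57 to 0.81 (-0.24 without Meis1-low replicate 1, and -0.11 with normexp), the low ends again without Meis1-negative replicate 1, and Serpina3n was 0.39 with normexp. For Meis1-high minus Meis1-low, Serpina3g ranged from -0.30 to 0.29 (0.09 without Meis1-high replicate 1), and was 0.052 with normexp and 0.11 with quantile normalization.

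Same-numbered arrays share a slide and a scan. With 2 pairs, their deviations from the gate means correlated at 0.209, 0.128 and 0.125, a hint from the data only. With the replicate number as a block, 0 genes and 0 Serpin genes were called, and the smallest adjusted p of a Serpin gene was 0.248, 0.359, 0.521 and 0.321. Arrays give no depth: low signal over background left 14 Serpin genes untested.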
